A study of Mus musculus with 2 samples.

Results

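The Zfp genes are mouse protein-coding genes named as zinc finger proteins, and the positions described here are those that nanopore m6A tools listed within their exons. Members were all unique genome positions on the strand of an exon of a protein-coding gene whose symbol is Zfp followed by a number, with Zfp42 left out. They numbered 3100 positions in 217 of the 364 such genes of the GENCODE annotation of GRCm38, out of 160430 positions in all lists, 157326 of them in coding genes. Native poly(A) RNA of WT mouse 129 embryonic stem cells (mESCs) and of Mettl3 KO mESCs, which lack the m6A methyltransferase, was sequenced by ONT direct RNA sequencing (DRS), with 1 library per condition. The KO cells came from colonies in which part of Mettl3 had been replaced by puromycin and hygromycin resistance genes on both alleles, and the labels give no other treatment. For 7 tools (ELIGOS, Epinano, m6Anet, MINES, Nanom6A, Tombo and xPore) there was a list for each library. xPore fits WT and KO reads together, so that its lists are not made from 1 library alone. For DiffErr, DRUMMER and Nanocompore there was 1 list from WT set against KO, called a comparison list here. Each list gave positions only, without a score, a rate or a coverage, and the cut-off behind each list is not stated with it. In coding genes alone, the WT lists of Tombo and Epinano held 74091 and 43772 positions. Both lie above the range of WT site numbers that the paper gives for its chosen cut-offs. The 3 comparison lists held 1258 to 2096 such positions, below that range. Not all lists thus match the study's numbers, and a listed position is not taken here as an m6A call at those cut-offs. The depth behind a position is unknown, and the cell type could not be checked against marker genes. All intervals below are 95% intervals that cover counting error only, and they describe these 2 libraries, since no test across libraries was possible. Positions in 1 gene share its transcripts and are not replicates.

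m6A is written on mRNA co-transcriptionally by a complex whose catalytic subunit is Mettl3, at adenosines in the context RRACH (R is A or G, H is A, C or T). It is known to be frequent in long internal exons and in last exons near the stop codon, and scarce close to splice junctions, where exon junction complexes are bound. Most Zfp proteins are C2H2 zinc finger proteins, and many carry a KRAB domain that recruits the corepressor Trim28 to silence retroelements and to protect imprints in embryonic stem cells. Their array of fingers is typically coded by 1 long last exon, and neighbouring fingers are joined by a conserved linker with the amino acids TGEKP. The genes lie in clusters of recent copies, so that short stretches of sequence recur among them.

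The genes matched that description in the translated coding sequence. Among 214 genes with a coding transcript, 189 coded at least 3 fingers of the C2H2 pattern, with a median of 10 and up to 33 fingers, and 8 coded none. The median coding length of the last coding exon was 1179 nt, against 146 nt in 9847 other coding genes with a listed position. It reached at least 1000 nt in 131 Zfp genes and in 510 others.

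The sequences that carry the main results are printed first, as 21 nt of the GRCm38 genome on the gene's strand, 5′ to 3′, with the RRACH 5-mer around the listed A in capitals. The first set comes from Zfp57, a KRAB protein that keeps DNA methylation at imprinted loci, and is shown because all 3 comparison lists hold at least 1 of its positions. All lie in exon 3, the last coding exon of transcript ENSMUST00000174672.
Zfp57, chr17:37009506-37009526: tcaaaggtGGACCattctttt
Zfp57, chr17:37009944-37009964: tgatccagGGACCagtggcca
Zfp57, chr17:37010313-37010333: atcttcatGAACCcgtggtgc
Zfp57, chr17:37010507-37010527: gaagattcGGACTgatttctg

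A second set is shown because 1 stretch of the last coding exon recurs in a chromosome 4 cluster of Zfp genes and was listed in several of them. Zfp991 and Zfp984 carry the same 21 nt as Zfp992.
Zfp992, chr4:146466167-146466187: accaaaaaAGACTtaagccca
Zfp990, chr4:145536777-145536797: accaaaaaAGACTtaaaccca
Zfp534, chr4:147675847-147675867: cccaaaaaAGACTtaagccca

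The third set shows positions that many tools listed in WT and no tool listed in KO. Zfp296 is a stem cell-enriched zinc finger protein, and Zfp598 is a ubiquitin ligase that acts on collided ribosomes. The last pair shows the opposite case, positions in Zfp982 and Zfp980 that the same tools listed in both libraries.
Zfp296, chr7:19580451-19580471: tggtctggGGACTggtaaaac
Zfp598, chr17:24681325-24681345: ttgggcctGGACTgctgtgtg
Zfp982, chr4:147512500-147512520: agtgaatgGGACAaatgcttt
Zfp980, chr4:145701987-145702007: actcacaaAGACTctctgaga

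The fourth set lies in finger linkers of Zfp990 and is shown because the codons of the linker themselves hold an RRACH 5-mer, and AAACC is the most frequent RRACH 5-mer of these genes.
Zfp990, chr4:145537893-145537913: caggagagAAACCttacaaat
Zfp990, chr4:145537389-145537409: caggagagAAACCgtacaaat

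At Mettl3, the targeted gene, 13 positions were listed in WT or comparison lists and 5 in KO. Nearly all Zfp positions had an RRACH 5-mer in the genome, 3099 of 3100. For 5452 of 5606 lines checked (97.3%), the transcript position in the list pointed to the listed base. In 313 Zfp positions (10.1%), the surrounding 51 nt of exon sequence occurred in another coding gene too, against 2.10% of positions in other coding genes. Both shares are lower bounds. Positions off the transcript with the longest coding sequence (185 in Zfp genes) or close to its ends could not be checked. Of these 313, 166 lay on chromosome 4 and 68 on chromosome 17. Reads of such copies can be assigned to the wrong gene, and how the reads were shared among copies was not tested.

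WT and KO lists were compared first, to see whether positions of Zfp genes were lost with Mettl3. The WT or comparison lists held 2190 Zfp positions and the KO lists 1910. Of these, 1190 were listed in WT or comparison only, 1000 in both and 910 only in KO. The positions found in both libraries were 32.3% of the Zfp positions and 47.9% of those in other coding genes. Those in WT or comparison lists only were 38.4% of Zfp positions, against 32.8% in other genes and 32.9% over all coding genes, a difference from the others of 5.59 percentage points (3.87–7.33). Against the 510 other genes with at least 1000 coding nt in the last coding exon, that difference was 1.498 points with an interval that held 0 (−0.525 to 3.54), and with such genes on both sides it was 2.50 points (0.0322–5.004). The positions found only in KO were 29.4% of all Zfp positions (27.8–31.0), against 19.3% in other coding genes and 19.5% over all positions in coding genes. The difference between Zfp and other genes was 10.04 percentage points (8.45–11.7). The difference was smaller against the 510 other genes with a long last coding exon, where 27.5% of positions were found only in KO, a difference of 1.89 points (0.00519–3.797). With genes of this structure on both sides, it was 31.6% in Zfp genes against 27.5%, a difference of 4.14 points (1.82–6.52). Whole genes followed the same order. Of the 217 Zfp genes, 51 had positions in KO lists only, 23.5% (18.4–29.6), where all coding genes gave 9.56% and the others 9.26%, a difference of 14.2 points (9.06–20.3). Of the 510 other genes with a long last coding exon, 114 (22.4%) had positions in KO lists only, and the difference from Zfp genes was 1.15 points with an interval that held 0 (−5.26 to 8.11). In turn, 24 genes had positions in WT or comparison lists only, 11.1% (7.55–15.9), where all coding genes gave 8.30%, and the difference from the others, 2.82 points, had an interval that held 0 (−0.740 to 7.72). A position needed reads in a library to be tested there, so a different amount of RNA in WT and KO and a different methylation cannot be told apart in these lists. By mass spectrometry, the paper found the KO mRNA to be virtually without m6A. It reads the sites that tools run on 1 library listed in KO as implying many false positives. The source of the positions listed only in KO was not tested here.

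**Figure D1:**
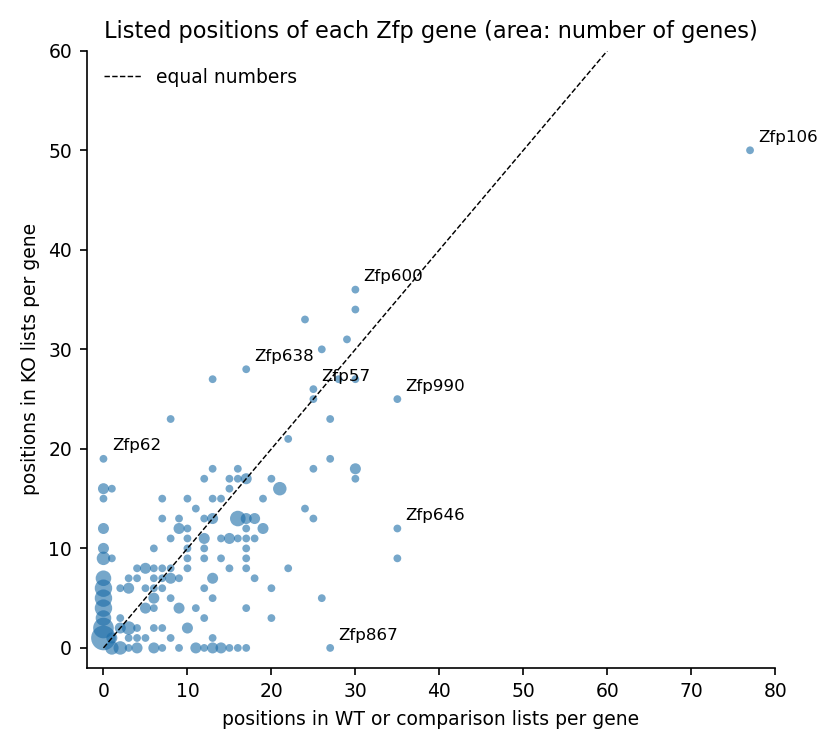
Number of positions in the WT or comparison lists (x axis) and in the KO lists (y axis) for each of the 217 Zfp genes, with point area in proportion to the number of genes at that point and a dashed line at equal numbers. Zfp106 stands far to the right with 77 and 50 positions, and the points on the y axis, with Zfp62 at the top, are the 51 genes with positions in KO lists only.

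A larger number of positions in WT or comparison lists than in KO was found in 109 genes (50.2%), where all coding genes gave 62.2%. The reverse was found in 95 genes (43.8%), where all coding genes gave 29.0%, and 13 had equal numbers. The share of genes with more positions in KO differed from that of other coding genes by 15.1 points (8.62–21.8). Against the 510 other genes with a long last coding exon it differed by 2.21 points (−5.54 to 10.1), and with such genes on both sides by 5.76 points (−3.65 to 15.2), and both intervals held 0. Zfp106, an RNA-binding protein needed by motor neurons, had the most, with 77 WT or comparison positions and 50 in KO, and 54 of the 77 lay in earlier coding exons. It was followed by Zfp646, Zfp710 and Zfp990 with 35 each. In KO these genes had 12, 9 and 25 positions. The other 8 of the 12 genes with most positions, Zfp568, Zfp600, Zfp655, Zfp91, Zfp961, Zfp97, Zfp980 and Zfp740, had 28 to 30 in WT and 17 to 36 in KO. In Zfp600, Zfp97 and Zfp980, KO held more positions than WT (36, 34 and 31 against 30, 30 and 29). In these genes 36 of 43, 35 of 41 and 24 of 38 positions had a 51-nt sequence found elsewhere.

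Genes with a known role were read from a list of 19. Among those that act on imprints and retroelements, Zfp57 had 25 WT or comparison positions and 26 in KO. Zfp445, which also protects imprints, had 6 and 10. Zfp809, which silences murine leukaemia provirus through Trim28, had 13 and 5. Zfp819 had 14 and 0, Zfp932 had 3 and 6, and Zfp708, another regulator of retroelements, had none in either library. The group thus held genes with more, fewer and no positions in KO.

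Of 6 regulators of stem cells and chromatin, 1 had fewer positions in KO, 2 had equal numbers and 3 had more. Over all coding genes with listed positions, 62.2% had fewer in KO, 8.79% equal numbers and 29.0% more. Zfp281, a regulator of pluripotency genes, had 12 WT or comparison positions and 3 in KO. Zfp143, which binds promoters, had 13 and 13, and Zfp207, a spindle assembly factor, had 25 and 25. Zfp296 had 12 and 13. Zfp217, which is known to bind Mettl3, had none in WT and 5 in KO, and Zfp462 had none and 9.

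Among genes that act on RNA, ribosomes and protein turnover, Zfp598 had 20 and 17 positions, and Zfp622, a factor of large ribosomal subunit maturation, had 14 and 11. Zfp638, a nuclear RNA-binding protein, had 17 and 28. The ubiquitin ligase Zfp91 had 30 and 27. Zfp36 (tristetraprolin, which carries CCCH fingers and binds AU-rich elements) and Zfp326 had none in WT and 2 each in KO.

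The ends of the scale were picked after their values were seen. With no position in WT, Zfp62 had 19 in KO, Zfp362 and Zfp948 had 16 each and Zfp37 had 15. With no position in KO, Zfp867 had 27 in WT, Zfp791 had 17, Zfp988 had 16 and Zfp82 had 15. Of these positions, 12 of 16 in Zfp988 and 14 of 15 in Zfp82 had a 51-nt sequence found in another coding gene. No such position was found in the other 6 genes named here. In these 8 genes Tombo and Epinano supplied most of the positions, such as 15 and 6 of the 19 in Zfp62 and 12 and 20 of the 27 in Zfp867, where a position may be listed by both tools.

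The tools differed in how Zfp positions were spread over WT and KO. Tombo, which tests ionic current against a model, listed 1342 Zfp positions in WT and 1367 in KO, a ratio of KO to WT of 1.02 (0.944–1.10) against 0.903 (0.893–0.912) in other coding genes. Nanom6A, a classifier of current features, listed 264 in each, a ratio of 1 (0.840–1.19) against 0.827 (0.814–0.841). MINES, a random forest on Tombo output, listed 241 and 170. The ratio of MINES was 0.705 in Zfp and 0.702 in other genes. m6Anet, a neural network, went from 216 to 102, a ratio of 0.472 (0.369–0.600) in Zfp genes and 0.582 (0.569–0.594) in other genes. Epinano, which reads basecalling errors, went from 1065 to 335 positions, a ratio of 0.315 (0.277–0.356) against 0.339 (0.333–0.345). xPore listed 58 and 30. The intervals of these ratios, and of those of ELIGOS below, treat the WT and KO counts as independent. Many positions were in both lists of a tool, such as 663 Zfp positions of Tombo, and the intervals do not account for that.

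ELIGOS, which also reads basecalling errors, stood apart. It listed 70 Zfp positions in WT and 53 in KO, a ratio of 0.757 (0.520–1.10), while in other genes the ratio of the list sizes was 0.248 (0.234–0.263). The ELIGOS KO positions were concentrated in a few genes, with 10 in Zfp985, 8 in Zfp97 and 5 in Zfp600, where WT had 0, 5 and 6. Without these 3 genes the Zfp ratio was 0.508 (0.316–0.802), and without positions whose 51-nt sequence occurs in another gene it was 0.769 (0.496–1.18). Of the ELIGOS positions in coding genes, those in Zfp genes made up 1.18% in WT (0.939–1.49) and 3.53% in KO (2.71–4.58). In the other 6 tools with both lists, the Zfp share lay between 0.812% and 2.43% in WT and between 0.755% and 2.26% in KO.

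Positions listed again are those that the same tool listed in WT and in KO. Over all coding genes, 55.4% of WT positions were listed again by a tool that had listed them in WT. In Zfp genes it was 41.2% against 55.6% in other coding genes, a difference of −14.4 points (−16.5 to −12.3). Against the 510 other genes with at least 1000 coding nt in the last coding exon, the difference was −2.19 points and its interval held 0 (−4.62 to 0.269). In genes with positions in both libraries it was −12.4 points (−14.6 to −10.2).

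By tool, the Zfp share was lower for Tombo (49.4% against 60.1%), MINES (26.6% against 40.6%), m6Anet (17.1% against 34.6%) and Epinano (12.02% against 16.7%), with intervals of the difference that left out 0. For Nanom6A it was 62.5% against 65.01% (difference −2.51 points, −8.51 to 3.14) and for xPore 17.2% against 24.9% (−7.68 points, −15.4 to 4.04), and both intervals held 0. For ELIGOS the order was turned, with 25.7% of Zfp positions listed again against 11.3% elsewhere, a difference of 14.5 points (5.64–25.8) that rests on 18 of 70 positions. Without Zfp985, Zfp97 and Zfp600 it was 10.8 points (2.06–22.9).

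**Figure D2:**
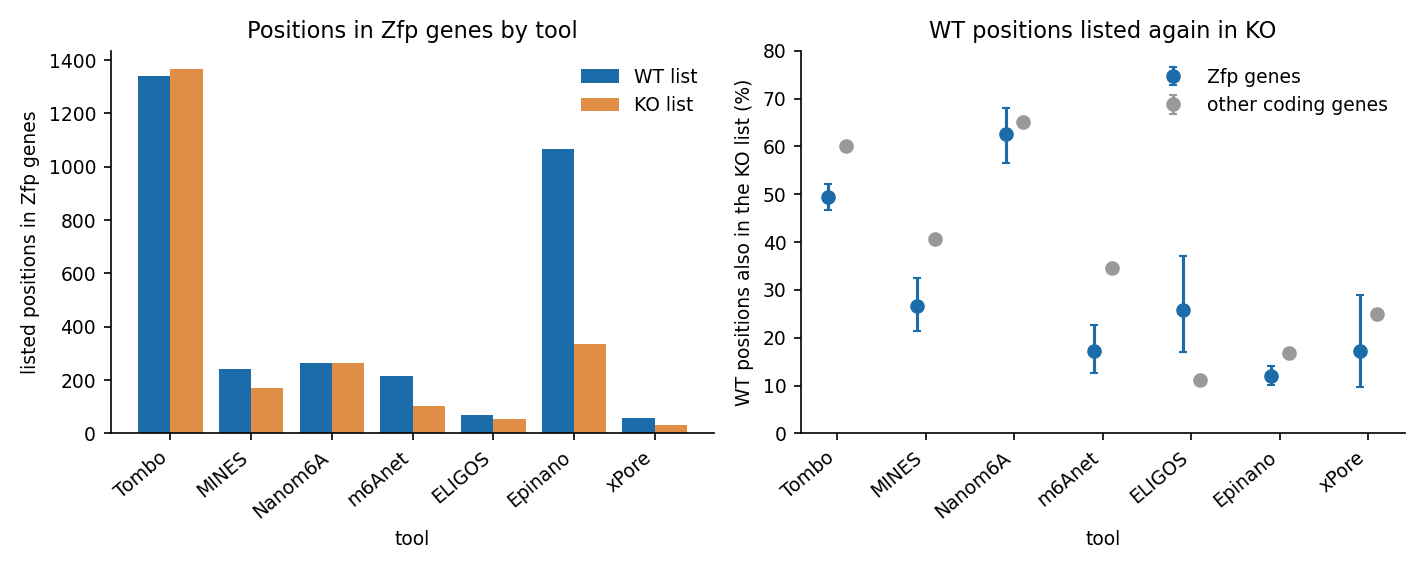
Left, the number of positions in Zfp genes in the WT list (blue) and the KO list (orange) of 7 tools. Right, the share of each tool's WT positions that its KO list also held, in percent, for Zfp genes (blue) and other coding genes (grey), with 95% Wilson intervals; ELIGOS is the one tool whose share was higher in Zfp genes, at 25.7% against 11.3%.

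The positions that the same tools listed in both libraries included the GGACA of Zfp982 printed above (chr4:147512510), which ELIGOS, MINES, Nanom6A, Tombo and m6Anet listed in WT and again in KO. It lies in the last coding exon of Zfp982, 165 nt from its start. The AGACT of Zfp980 (chr4:145701997) was listed by ELIGOS, MINES, Nanom6A and Tombo in both libraries, as was a GGACT in exon 15 of Zfp106 (chr2:120519101). An AGACT in the 3′ UTR of Zfp985 (chr4:147584847) was listed in both by MINES, Nanom6A, Tombo and m6Anet.

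In the opposite case, no tool listed the position in KO. The GGACT of Zfp296 (chr7:19580461), 96 nt before the stop codon, was listed by 7 tools in WT or in the comparison, and so was that of Zfp598 (chr17:24681335), 125 nt before the stop codon. Both were listed by DiffErr, ELIGOS, Epinano, Nanom6A, Tombo, m6Anet and xPore. A second position of Zfp296 without a KO call, a GGACA 35 nt before the stop codon (chr7:19580522), was listed by 6 tools. Zfp511 had 2 such positions in its 3′ UTR, 30 and 92 nt past the first base of the stop codon (chr7:140040349 and chr7:140040411), each listed by 6 tools.

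Comparison lists held few Zfp positions. Nanocompore listed 8, DiffErr 13 and DRUMMER 9, which together were 20 positions in 12 genes. Over all coding genes, 2.49% of the positions in WT or comparison lists were in a comparison list. In Zfp genes it was 0.913% against 2.51% in other coding genes, a difference of −1.60 points (−1.93 to −1.10). Among positions listed by at least 2 tools it was 2.87% against 7.19%, a difference of −4.33 points (−5.36 to −2.79). Against other genes with a long last coding exon, which had 3.05%, the difference was −2.14 points (−2.73 to −1.49). Without Zfp57 the Zfp share was 0.600%. By 5-mer, the 20 positions were 9 GGACT, 5 AGACT, 2 GGACA, 2 GGACC, 1 AGACC and 1 GAACC, and none was AAACC. Among GGACT positions alone, the difference from other genes was −3.09 points with an interval that held 0 (−5.02 to 0.377).

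Zfp57 alone held 7 of the 20. The gene (ENSMUSG00000036036) lies on the plus strand at chr17:37001163-37010635, and its 7 comparison positions all lie in the last coding exon, which has 1103 coding nt. The GGACC at chr17:37009516, 97 nt into that exon, was listed by all 10 tools in WT or in the comparison, and in KO by Nanom6A only. No other Zfp position was listed by 10 tools. The GAACC at chr17:37010323 was listed by 7 tools, DRUMMER and DiffErr among them, and by none in KO. The GGACC at chr17:37009954 was listed by all 3 comparison tools, by 7 tools in all, and in KO by Nanom6A, Tombo and xPore. The GGACT at chr17:37010517, whose A lies 2 nt before the first base of the stop codon, was listed by 8 tools in WT or comparison and by 3 in KO.

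The remaining Zfp57 positions were spread differently. Of 30 positions in the gene, 21 were listed both in WT or comparison lists and in KO. The 7 positions in the 5′ UTR that WT lists held were listed by 1 tool each, Tombo or Nanom6A. Epinano listed 11 positions in WT and none in KO, and ELIGOS listed 5 and none. Nanom6A listed 14 in WT and 18 in KO, and Tombo 16 and 15. Within this gene, the tools differed in which library had more positions.

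**Figure D3:**
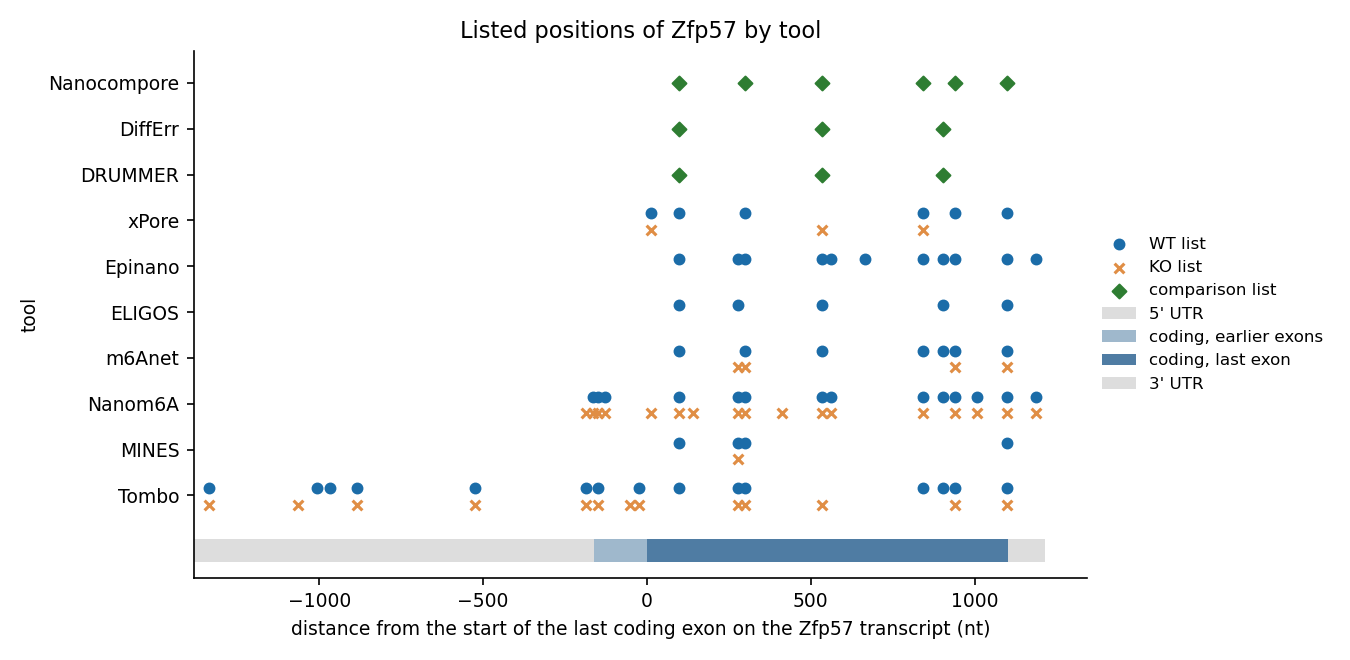
Positions of Zfp57 on its transcript by tool, with distance from the start of the last coding exon in nt on the x axis, WT lists as blue circles, KO lists as orange crosses and comparison lists as green diamonds, and the layout of the transcript as a bar at the bottom. The comparison positions all lie in the last coding exon, from 97 to 1098 nt after its start, while Tombo also listed positions along the 5′ UTR in both libraries.

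The other comparison positions were held by 11 genes. Zfp598 had a GGACA in exon 9 (chr17:24680127) listed by 9 tools and by Tombo in KO, besides the GGACT printed above. Zfp207 had a GGACA (chr11:80395690) listed by 9 tools and by Nanom6A in KO, in an exon of a transcript other than that with the longest coding sequence. Zfp296 had, besides the position printed above, a GGACT (chr7:19580245) listed by 8 tools and by 3 in KO. Zfp428 (chr7:24515466), Zfp639 (chr3:32520219), Zfp771 (chr7:127254702), Zfp511 and Zfp622 (chr15:25986918) had 1 each, listed by 4 to 7 tools in WT or comparison.

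The last 3 comparison positions were copies of 1 another in sequence. Zfp992 (chr4:146466177), Zfp991 (chr4:147178521) and Zfp993 (chr4:146657574) were each listed at the AGACT within the same 21 nt. That of Zfp992 was listed by 7 tools and by none in KO. Those of Zfp991 and Zfp993 were listed by 6 and 5 tools and, in KO, by Nanom6A and xPore. A search of the longest coding transcripts of all Zfp genes for this stretch with at most 2 mismatches, made after these values were seen, found it in 9 genes, all on chromosome 4, at 190 or 196 nt from the start of the last coding exon. The stretch was listed in WT or comparison in 8 of them and in KO in 3. Zfp993 had no coding transcript of the kind searched, so it is not among the 9 and not in these counts. Zfp990 was listed by 6 tools in WT and by none in KO, Zfp534 by Epinano, MINES and Tombo in WT and by none in KO, and Zfp987 and Zfp988 by Epinano and Tombo in WT and by none in KO. Zfp984 was listed by Epinano and Tombo in WT and by Tombo in KO. In Zfp985 the order was turned, with Tombo in WT and ELIGOS, MINES, Nanom6A and Tombo in KO, and Zfp989 was in no list. Since the copies share the sequence, these listings are not independent of each other.

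Location in the long last coding exon was examined next. Of 2050 WT or comparison positions that lay on the transcript with the longest coding sequence, 718 (35.02%, 32.99–37.1) lay in the coding part of the last coding exon, against 11.97% (11.8–12.2) in other coding genes, a difference of 23.1 points (21.02–25.2). The same part held 33.4% of all RRACH positions of Zfp transcripts and 8.72% of those of other genes. Zfp positions exceeded their own RRACH share by 1.60 points, with an interval that held 0 (−0.591 to 3.85), and other genes exceeded theirs by 3.25 points (3.05–3.45). In KO the Zfp share was 36.1% (33.9–38.4), 2.70 points above RRACH (0.360–5.09). All 17 lists had a higher share in Zfp genes than in other genes, with differences from 16.6 points in the WT list of MINES to 63.0 points in DRUMMER, whose Zfp share rests on 6 of 7 positions.

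**Figure D4:**
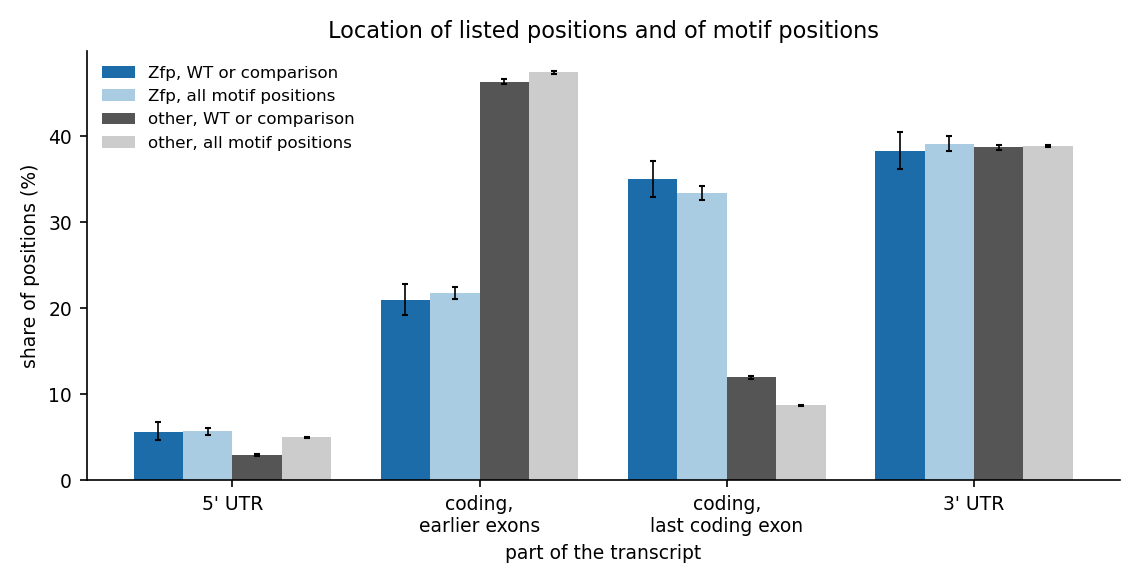
Share of positions, in percent with 95% Wilson intervals, in 4 parts of the transcript for WT or comparison positions and for all RRACH motif positions, in Zfp genes (blue) and other coding genes (grey). In the last coding exon the listed Zfp positions reach 35.02% and their motif positions 33.4%, against 11.97% and 8.72% in other genes.

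Set against genes of like structure, the order was turned. In genes with at least 1000 coding nt in the last coding exon, that exon held 47.9% of Zfp positions (45.2–50.8) and 53.9% of other positions (52.6–55.3), a difference of −5.98 points (−9.08 to −2.87). The rate per RRACH position in the last coding exon over that in earlier coding exons was 1.26 (1.02–1.57) in these Zfp genes and 2.96 (2.67–3.29) in the other genes. In KO the ratios were 1.02 (0.834–1.26) and 2.21 (1.997–2.45).

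Along these long exons the rate in Zfp genes stayed between 115 and 190 per 1000 RRACH positions. WT or comparison lists held 153 per 1000 RRACH positions (115–200) in the first 100 nt, 190 (149–240) from 100 to 200 nt, 155 (136–175) from 800 to 1600 nt and 115 (87.7–150) beyond. In the other genes it was 166 (141–194) in the first 100 nt and reached 246 (234–259) from 800 to 1600 nt. The intervals of Zfp and other genes overlapped in the first 400 nt and did not overlap beyond. In KO, the Zfp rate went from 171 (131–220) in the first 100 nt to 132 (115–151) between 800 and 1600 nt, while in the other genes it went from 163 (139–192) to 205 (193–217).

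**Figure D5:**
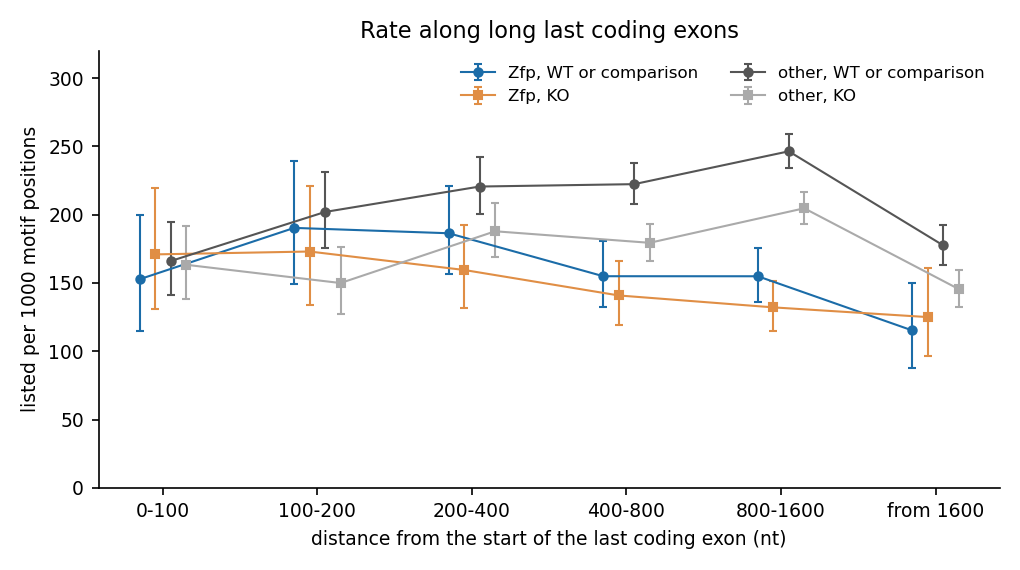
Listed positions per 1000 RRACH motif positions against distance from the start of the last coding exon, in genes with at least 1000 coding nt in that exon, with 95% Wilson intervals. Zfp genes (WT or comparison blue, KO orange) stay between 115 and 190, while other genes in WT or comparison (dark grey) reach 246 between 800 and 1600 nt.

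The few comparison positions were placed differently. Of 18 on the transcript, 14 (77.8%, 54.8–91.0) lay in the last coding exon, against 21.8% in other coding genes, a difference of 56.0 points (32.9–69.3). Zfp57 held 7 of the 14, and without it 7 of 11 remained. In genes with a long last coding exon, all 10 Zfp comparison positions lay there, against 108 of 160 in other genes. Zfp57 held 7 of these 10, and the other 3 were those of Zfp639, Zfp991 and Zfp992, of which the last 2 have the same 21 nt.

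A window of 200 nt on either side of the stop codon held 18.4% of Zfp positions in WT or comparison lists (16.8–20.1), 14.99% in KO (13.4–16.7), 12.02% of those listed only in KO (10.02–14.4), and 11.1% of RRACH positions (10.6–11.6). The share in WT or comparison exceeded that of RRACH by 7.30 points (5.59–9.12). In other coding genes the shares were 22.6% in WT or comparison and 12.8% of RRACH, so that Zfp genes were 4.25 points lower (difference −4.25, −5.89 to −2.50). In KO the share was 21.2% in other genes, and 14.9% of their positions listed only in KO. Of the comparison positions, 8 of 18 Zfp positions (44.4%, 24.6–66.3) and 51.7% of those of other genes lay there.

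Sites per gene depended on which genes were counted. Among genes with at least 1 WT or comparison position, 166 Zfp genes had a median of 12 such positions (quartiles 6 and 17) and 8941 other genes had 12 (7 and 19). Over all genes with a position in any list, which adds the genes with positions in KO lists only, the median was 8 in 217 Zfp genes (quartiles 1 and 16), 11 in 9853 other genes (5 and 18) and 9 in the 510 other genes with a long last coding exon (2 and 17). Per 1000 RRACH positions the Zfp transcripts had 161 positions in WT or comparison lists and other genes 249, a ratio of 0.647 (0.619–0.675). The RRACH positions of genes listed only in KO were counted too. Against other genes with a long last coding exon, which had 167, the ratio was 0.962 (0.913–1.01). That ratio counts all Zfp genes, with or without such an exon. With such genes on both sides, lists held 1218 WT or comparison positions over 8041 RRACH positions in Zfp genes. In the others they held 5283 over 31522. The rate was thus lower in Zfp genes, and no interval was computed for it. By part of the transcript, Zfp genes had 160 per 1000 in the 5′ UTR against 146 elsewhere, 155 against 244 in earlier coding exons, 169 against 343 in the last coding exon and 158 against 249 in the 3′ UTR. Against all other genes, the ratio was below 1 in each part but the 5′ UTR, where its interval held 1 (1.09, 0.901–1.32). Between Zfp and other genes that both had a long last coding exon, the order differed by part. Zfp genes then had the higher rate in the 5′ UTR (184 against 88.7 per 1000, ratio 2.07, 1.58–2.69) and in earlier coding exons (126 against 73.2, ratio 1.72, 1.37–2.14). They had the lower rate in the last coding exon (158 against 217, ratio 0.729, 0.665–0.797) and in the 3′ UTR (145 against 169, ratio 0.860, 0.773–0.954).

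Fewer Zfp positions than others were shared between tools. Of 2190 positions, 68.1% were listed by 1 of the 10 tools and 31.9% by at least 2, against 34.9% in other genes, a difference of −2.99 points (−4.92 to −0.987). At least 6 tools listed 23 Zfp positions (1.05%), against 2.02% of the others (difference −0.973 points, −1.33 to −0.447).

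The 5-mers of Zfp genes differed from those of other genes. AAACC made up 14.9% of all RRACH positions in Zfp transcripts, against 6.99% in other genes. In WT or comparison lists it was 8.58% of Zfp positions against 4.42% of others, a difference of 4.17 points (3.06–5.42). Without Tombo it was 5.08% against 3.75%, a difference of 1.34 points (0.321–2.59). Among positions listed by at least 2 tools, the difference was 0.721 points with an interval that held 0 (−0.261 to 2.22). In KO, AAACC was 12.7% of Zfp positions and 5.24% of others. GGACT, the 5-mer best known for m6A, was 10.2% of Zfp positions against 11.99% of others (difference −1.76, −2.98 to −0.410).

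Per RRACH position, the rate of each of the 12 RRACH 5-mers had a lower value in Zfp genes, and the differences by 5-mer were not tested. GGACT was listed at 293 per 1000 against 398 in other genes, GGACA at 306 against 382, AGACT at 233 against 268, and AAACC at 95.6 against 157. Of the 12 RRACH 5-mers, the share listed again in KO was highest for AGACA in Zfp genes (59.0%) and in other genes (70.1%), and AGACT had 27.7% in Zfp genes and 46.4% elsewhere.

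TGEKP linkers were found 829 times in 150 of 214 Zfp genes, and their codons held 534 RRACH positions, 530 of them AAACC, as in the sequences of Zfp990 printed above. WT or comparison lists held 45 linker positions, 84.3 per 1000 (63.6–111), against 170 (161–179) in the rest of the coding sequence, a ratio of 0.496 (0.359–0.668). Without Tombo the ratio was 0.179 (0.0888–0.321). AAACC outside of linkers was listed at 84.1 per 1000 (66.8–105), so that for the same 5-mer the ratio was 1.01 (0.677–1.49). In KO the linkers had 63 positions, 118 per 1000, against 151 per 1000 outside. No comparison list held a linker position, and none held an AAACC outside of linkers either, while the 6486 coding RRACH positions outside of linkers had 16.

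Of the linker positions, 4 were listed by at least 2 tools in WT, 3 of them in Zfp990 and 1, at chr4:147674909, in Zfp534, listed by Epinano and Tombo in WT and by Tombo in KO. In Zfp990, that at chr4:145537903 was listed by ELIGOS, Nanom6A and Tombo in WT and by none in KO. That at chr4:145537399 was listed by Nanom6A and Tombo in WT and by Nanom6A in KO, and the third, at chr4:145537987, by Nanom6A and Tombo in WT and by none in KO. In the finger array as a whole, the rate was 149 per 1000 RRACH positions (138–161) against 178 (166–191) in coding sequence outside of it, a ratio of 0.839 (0.745–0.944). For GGACH 5-mers alone, it was 302 (261–347) against 268 (238–301), a ratio of 1.13 with an interval that held 1 (0.898–1.41).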

How the data were processed

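The authors basecalled the reads with Guppy, aligned them with minimap2 to the GENCODE transcriptome of GRCm38 (mm10), ran each tool and converted transcript to genome positions. They deposited 17 lists of positions without scores, counts of reads or coverage. Computed here: lists were merged by chromosome, start and strand, assigned to exons of GENCODE M21 and read against the GRCm38 genome. The transcript with the longest coding sequence represented each gene. Fingers and TGEKP linkers were searched in its translation. Libraries were grouped by their labels. Shares have Wilson intervals, differences Newcombe intervals, and ratios of rates intervals from the exact binomial interval. These were tested on simulated data in 5 settings of 400 runs each, where 95.2% to 96.8% of intervals held the true value. The simulated counts were independent, as the intervals assume. That check therefore does not cover positions that share a gene or a copied sequence. The members and lists were chosen with earlier results of these data known. Named genes were the 12 with most WT or comparison positions and a list of 19 with known roles. Named sites were the 8 listed by most tools and none in KO, the 5 listed by most tools in both, and the 3 linker sites with most tools. All comparison positions and the extreme genes were added after their values were seen. Alternatives used other lists, genes, 5-mers, symbols, regions and ways of counting a position. Python 3.11.15, numpy 2.4.6, scipy 1.17.1, pysam 0.24.0 and matplotlib 3.10.9 were used.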

Additional observations from a re-analysis of the deposited data

How the results depend on the processing

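Results were recomputed under 75 alternatives set at the start and 26 added after seeing the data. Of these, 82 kept the direction and the side of 0 or 1 of their interval, or a count or median within the limits set for it. All Zfp genes, with or without a long last coding exon, were set against other genes with at least 1000 coding nt in it. The difference in positions listed again was then −2.19 points, and the rate ratio per RRACH position was 0.962. The last coding exon share of Zfp genes differed by −18.9 points. The difference in genes with positions only in KO, an alternative added after seeing the data, was 1.15 points. With only such genes on both sides, also added, the last coding exon share differed by −5.98 points and genes with positions only in KO by 2.84 points, while positions only in KO differed by 4.14 points. Also added were the difference in positions only in WT or comparison, 1.498 points against such other genes, and that in genes with more positions in KO, 2.21 points against them and 5.76 with such genes on both sides. The difference in the comparison lists was −0.273 points for AAACC and −3.09 for GGACT alone, and both intervals held 0. The linker ratio was 1.01 for AAACC alone. The AAACC difference was 0.721 points at 2 or more tools. The number of Zfp positions was 6156 with 1 site per line and 1881 without Tombo. Among genes with WT or comparison positions, the Zfp median per gene was 8 without Tombo, 8 without Epinano and 4 at 2 or more tools, beside 8, 10 and 4 in other genes. The cause of these changes was not tested. No paired analysis was possible because each condition had 1 library. Depth and coverage are unknown, so a position absent from a list may be unmethylated, untested or below the cut-off.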

Other observations

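Zfp genes with letters after the number were not counted above, and 18 of them had a listed position. More positions in WT or comparison lists than in KO were found in 8 of the 18, more in KO in 7, and equal numbers in 3. Over all coding genes with listed positions, these shares were 62.2%, 29.0% and 8.79%. The genes given here were picked after their values were seen. Zfp36l2, which like Zfp36 codes a CCCH protein of mRNA decay, had 20 WT or comparison positions and 7 in KO, and Zfp36l1 had 7 and 1. Zfp322a had 22 and 4. In a pair of neighbouring symbols the lists were opposite, with 10 WT and 0 KO positions in Zfp955a and 0 and 8 in Zfp955b. Zfp729b had 0 and 15.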
